A study of Mus musculus with 2040 samples.

Results

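The clustered protocadherins are neighbouring cell-adhesion genes in 3 families, alpha, beta and gamma, on mouse chromosome 18. Members were the columns of the expression table whose symbol starts with Pcdha, Pcdhb or Pcdhg followed by a digit, a, b or c. They numbered 56 of 32245 gene columns: 11 alpha, 22 beta, 12 gamma-A and 6 gamma-B genes, and 5 C-type genes (Pcdhac1, Pcdhac2, Pcdhgc3, Pcdhgc4 and Pcdhgc5). All 56 lie between positions 36930184 and 37841873 of chromosome 18 in mm10, on GENCODE M21 gene models. Pcdha10 and Pcdhgb8 were not analysed here. Each gene is called an isoform below, as is usual for this locus.

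In the alpha and gamma families, each variable first exon has its own promoter and is spliced to constant exons that the family shares, whereas each beta gene is a single exon. Individual neurons are known to switch on only some of the variable alpha, beta and gamma promoters, so that neighbouring cells carry different sets, while C-type promoters are used more uniformly within a cell type. The proteins bind like with like between cells, and are known for self-recognition of neurites, for neuron survival and, in the gamma family, for astrocyte shape.

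The table held 2040 single cells, each a library of its own, from 47 C57Bl/6J mice. Each mouse had received an AAV vector with 1 of 30 enhancers or promoters driving SYFP2, a yellow fluorescent protein, and fluorescent cells were flow sorted from the primary visual cortex (VISp, 41 mice, 1785 cells), the midbrain and hindbrain (MB/HB, 4 mice) or the cerebellar cortex (CBX, 2 mice). MB/HB astrocytes came from the vectors MGT_E160m and eHGT_381h, with 2 mice each, and CBX astrocytes from eHGT_375m. No vector was used in 2 tissues, so tissue and vector cannot be told apart. Ages were not given in the sources used here, no animal went without a vector, and the SYFP2 gate selected which cells of a class were seen.

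Cells were clustered without any clustered protocadherin and clusters were named from marker genes, giving 968 astrocyte-like cells, of which 739 came from VISp, 81 from CBX and the rest from MB/HB, and 930 oligodendrocyte-like and 84 neuron-like cells in VISp. These are called astrocytes, oligodendrocytes and neurons below. Different clusters held the astrocytes of each tissue: 1 cluster, led by Hopx, held 97.5% of the CBX astrocytes and another held 93.9% of the MB/HB astrocytes. Of the VISp astrocytes, 30 cells also carried markers of another class, as did 20 MB/HB astrocytes, 4 CBX astrocytes, 43 oligodendrocytes and 16 neurons. A cluster of 35 cells that mixed oligodendrocyte and neuron markers stayed unnamed. The mouse was the replicate, and a mouse entered a comparison with at least 10 cells of the class: 19, 4 and 2 mice for astrocytes of VISp, MB/HB and CBX, 22 for oligodendrocytes and 3 for neurons. The 3 mice with enough neurons had received eHGT_374m (1 mouse) or MBP_promoter (2 mice). Those 3 mice gave 61 of the 84 neurons.

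Read depth was matched before isoforms were counted. Cells had a median of 434101.5 reads (57873 to 1455022), and class medians ran from 375425 in CBX astrocytes to 442974 in oligodendrocytes. Each cell was thinned to 200000 reads, which left out 7 VISp astrocytes and 13 oligodendrocytes with fewer. An isoform counted as detected in a cell with at least 1 read. Before thinning, isoform number rose only weakly with depth, with Spearman's rho between 0.10 and 0.20 across the cells of a group (81 to 930 cells, which share mice and vectors).

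Neurons carried more isoforms per cell than glia. Per mouse, neurons averaged 6.46 ± 0.39 isoforms per cell (SD, n = 3 mice), with 6.46, 6.86 and 6.07 in the 3 mice. VISp astrocytes averaged 1.61 ± 0.40 (SD, n = 19), with a lowest mouse at 1.03, a median of 1.59 and a highest at 2.44. Oligodendrocytes averaged 0.95 ± 0.27 (SD, n = 22), with a lowest mouse at 0.50, a median of 0.99 and a highest at 1.55. Plate names start with AB or SM. On AB plates alone the mean was 1.06 ± 0.22 in oligodendrocytes (SD, n = 16) and 1.59 ± 0.41 in VISp astrocytes (SD, n = 16). The neuron mice lay above every glial mouse, while the ranges of VISp astrocytes and oligodendrocytes overlapped. The number is a sum over the members, so these are descriptions with no test. At the same 200000 reads, neurons also had more genes detected of a fixed panel of 5150, with the members left out of the count. They had 1806 per cell, against 891 in VISp astrocytes and 919 in oligodendrocytes. The ratio of neurons to VISp astrocytes was 4.02 for isoforms and 2.03 for panel genes.

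**Figure D1:**
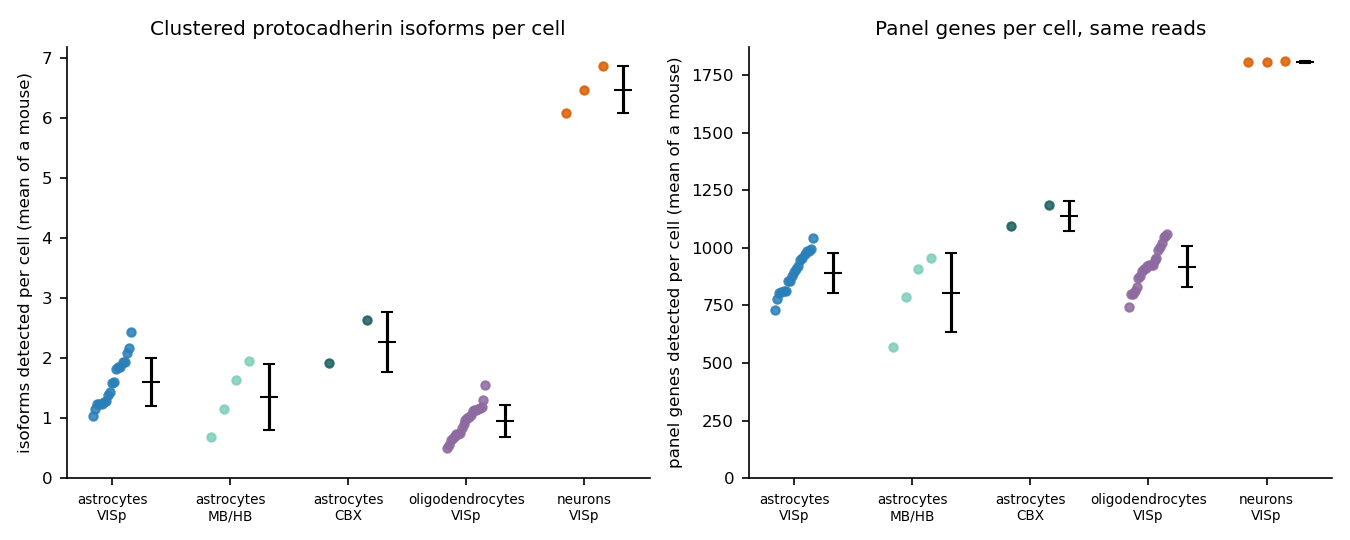
Left, mean number of clustered protocadherin isoforms detected per cell at 200000 reads, and right, mean number of panel genes detected in the same thinned cells; each point is a mouse and each bar the mean ± SD over mice. The 3 neuron mice sit between 6.07 and 6.86 isoforms, above all glial mice, and at about 1806 panel genes.

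Among astrocytes, CBX had 1.92 and 2.63 isoforms per cell in its 2 mice. The 4 MB/HB mice had 1.95 and 0.69 (eHGT_381h) and 1.15 and 1.64 (MGT_E160m), a mean of 1.36 ± 0.55 (SD, n = 4). Both tissues overlapped the range of the VISp mice. The 1 MB/HB mouse at 0.69 isoforms also had the fewest panel genes, 571.4 against 785 to 955 in the other 3, and CBX astrocytes had 1140 panel genes per cell. The part of panel gene number in these differences was not tested.

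At the level of single cells, 20.1% of VISp astrocytes, 31.1% of MB/HB astrocytes, 11.1% of CBX astrocytes and 40.6% of oligodendrocytes had no isoform detected, and none of the 84 neurons did. Neurons ranged from 2 to 12 isoforms, with a median of 6. The highest cell held 9 isoforms among VISp astrocytes and 6 in each of the other glial groups. Cells with 3 or more isoforms made up 96.4% of neurons, 44.4% of CBX astrocytes, 19.8% of VISp astrocytes, 18.2% of MB/HB astrocytes and 7.63% of oligodendrocytes. A cell with no isoform detected may still have carried transcripts below 1 read in 200000.

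**Figure D2:**
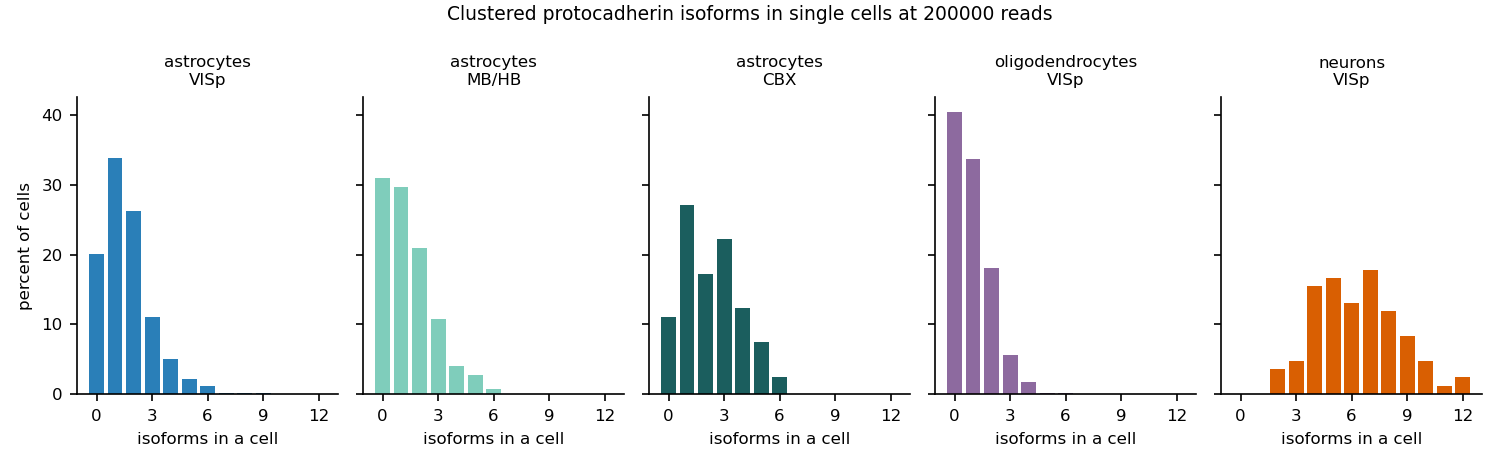
Percent of cells (vertical axis) with each number of isoforms detected at 200000 reads (horizontal axis), in 5 panels for the 5 groups. Oligodendrocytes peak at 0 isoforms (40.6% of cells), VISp and CBX astrocytes at 1, and neurons spread from 2 to 12.

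One isoform supplied most of the reads in a glial cell. In cells with at least 20 reads on members, before thinning, the leading isoform held a median of 94.4% of those reads in oligodendrocytes, 86% in VISp astrocytes, 77.4% in MB/HB astrocytes, 56.8% in CBX astrocytes and 34.7% in neurons. Such cells made up 37.4%, 58.3%, 43.9%, 65.4% and 95.2% of the 5 groups in that order. Summed over members, the level per mouse was 240 ± 36.2 CPM (SD, n = 3; reads scaled to 1000000 per cell) in neurons, 144.8 ± 43.2 CPM in VISp astrocytes (SD, n = 19) and 71.1 ± 23 CPM in oligodendrocytes (SD, n = 22). The ratio of neurons to VISp astrocytes in summed level was 1.65, against 4.02 in isoform number.

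The alpha isoforms, whose variable exons join the alpha constant exons, were found almost only in neurons. Neurons had 0.90 ± 0.24 alpha isoforms per cell (SD, n = 3), and VISp astrocytes had 0.00359 and oligodendrocytes 0.0112. All 11 alpha isoforms were detected in at least 1 neuron at 200000 reads, 3 of 11 in any VISp astrocyte and 6 of 11 in any oligodendrocyte. Pcdha9 was the most widely detected, in 15 of the 84 neurons, at 9.16, 2.68 and 0.87 CPM in the 3 neuron mice, and it was listed at 0 in every astrocyte and oligodendrocyte mouse. Pcdha4 stood at 1.59, 5.71 and 3.42 CPM in the 3 neuron mice and was listed at 0 in all 19 VISp astrocyte mice. Pcdha2 reached 8.60 CPM in 1 neuron mouse and 0 in another, and was detected in only 4 neurons in all, with a median of 29.5 reads. Single glial cells carried an alpha isoform well above 1 read: 1 oligodendrocyte had 150 reads of Pcdha1 and 1 MB/HB astrocyte had 89 reads of Pcdha12, both picked out after their values were seen.

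The beta isoforms, each encoded by 1 exon, made up the largest part of the neuronal set. Neurons had 3.04 ± 0.17 beta isoforms per cell (SD, n = 3), against 0.34 in VISp astrocytes, 0.40 in MB/HB, 0.62 in CBX and 0.23 in oligodendrocytes, and 21 of 22 beta isoforms were seen in neurons. Pcdhb9 stood at 45.7, 47.2 and 50.2 CPM in the 3 neuron mice, on 31.6% ± 6.1 of their cells (SD, n = 3). It was listed at 0 in 15 of 19 VISp astrocyte mice and 18 of 22 oligodendrocyte mice, with highest glial values in VISp of 8.52 and 4.23 CPM. Per kilobase of exon found in no other member, Pcdhb9 had the highest level of the 56 members in neurons, 15.6 CPM per kilobase, followed by Pcdhac2 at 6.14. Pcdhb14 was detected in 25.3% ± 11.8 of neurons (SD, n = 3), Pcdhb16 in 23.3% ± 12 and Pcdhb17 in 23.04% ± 0.79.

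Pcdhb14 was the most widely detected beta isoform in the astrocytes of VISp, MB/HB and CBX alike. It was detected in 6.07% ± 3.92 of VISp astrocytes (SD, n = 19) and 6.53% ± 2.85 of MB/HB astrocytes (SD, n = 4), and in 20.9% and 26.3% of cells in the 2 CBX mice. The highest VISp mouse was at 13.6%, below both CBX mice. In level, Pcdhb14 was 13.7 and 34.3 CPM in the CBX mice and between 0 and 62.5 CPM in VISp mice, so the groups overlapped in level and not in share of cells. In oligodendrocytes Pcdhb6 was the leading beta isoform, on 2.98% ± 2.89 of cells (SD, n = 22).

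In the gamma-A and gamma-B subfamilies the classes stood closer together in isoforms per cell than in the beta family, with Pcdhga12 counted. The gamma-A number includes Pcdhga12, on 25.3% of neurons, 35.9% of VISp astrocytes and 19.2% of oligodendrocytes, mostly with a single read. Its higher share in VISp astrocytes than in neurons narrows the gamma-A gap between those classes. Gamma-A isoforms numbered 0.93 ± 0.23 per neuron (SD, n = 3), 0.64 ± 0.18 per VISp astrocyte (SD, n = 19) and 0.50 ± 0.15 per oligodendrocyte (SD, n = 22), and gamma-B isoforms 0.38, 0.19 and 0.16. In summed level the neurons were the lowest of these 3 classes: gamma-A stood at 16.5 CPM in neurons, 39.7 in VISp astrocytes and 25.5 in oligodendrocytes, and gamma-B at 5.81, 18.4 and 10.9 CPM. The gamma-A range of neuron mice, 11.2 to 19.9 CPM, lay within that of VISp astrocyte mice, 8.96 to 86.1. With Pcdhga12 set aside, Pcdhga7 was the isoform most often found alone in oligodendrocytes, in 54 of 917 cells. It was detected on 10.6% ± 6.4 of oligodendrocytes (SD, n = 22) and 6.06% ± 4.13 of VISp astrocytes (SD, n = 19). Pcdhga11 was next in oligodendrocytes, on 5.59% ± 4.97 of cells, and Pcdhgb7 followed at 4.33% ± 3.18. Pcdhgb6 and Pcdhga5 completed the 5 leading isoforms after Pcdhga12, at 3.79% ± 3.23 and 3.34% ± 3.34 of oligodendrocytes.

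Pcdhga12 was detected in many cells of every group, mostly with a single read. It was seen on 35.9% ± 12.9 of VISp astrocytes (SD, n = 19), 34.9% ± 9.3 of MB/HB astrocytes (SD, n = 4), 19.2% ± 9.6 of oligodendrocytes (SD, n = 22) and 25.3% ± 18.4 of neurons (SD, n = 3), with 37.2% and 23.7% in the CBX mice. Its median was 1 read per detecting cell in every group except CBX astrocytes, where it was 2, and only 19% of the VISp astrocytes and 7.02% of the oligodendrocytes that carried it had 10 or more reads. Pcdhgc3, by contrast, had a median of 20 reads before thinning in the VISp astrocytes that carried it, Pcdhgc5 of 30 and Pcdhb14 of 66. Without Pcdhga12, an alternative chosen after its values were seen, isoforms per cell were 6.21 in neurons, 1.25 in VISp astrocytes, 1.01 in MB/HB astrocytes, 1.97 in CBX astrocytes and 0.76 in oligodendrocytes. No read was assigned to Pcdhb1 or Pcdhga10 in any of the 2040 cells.

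**Figure D3:**
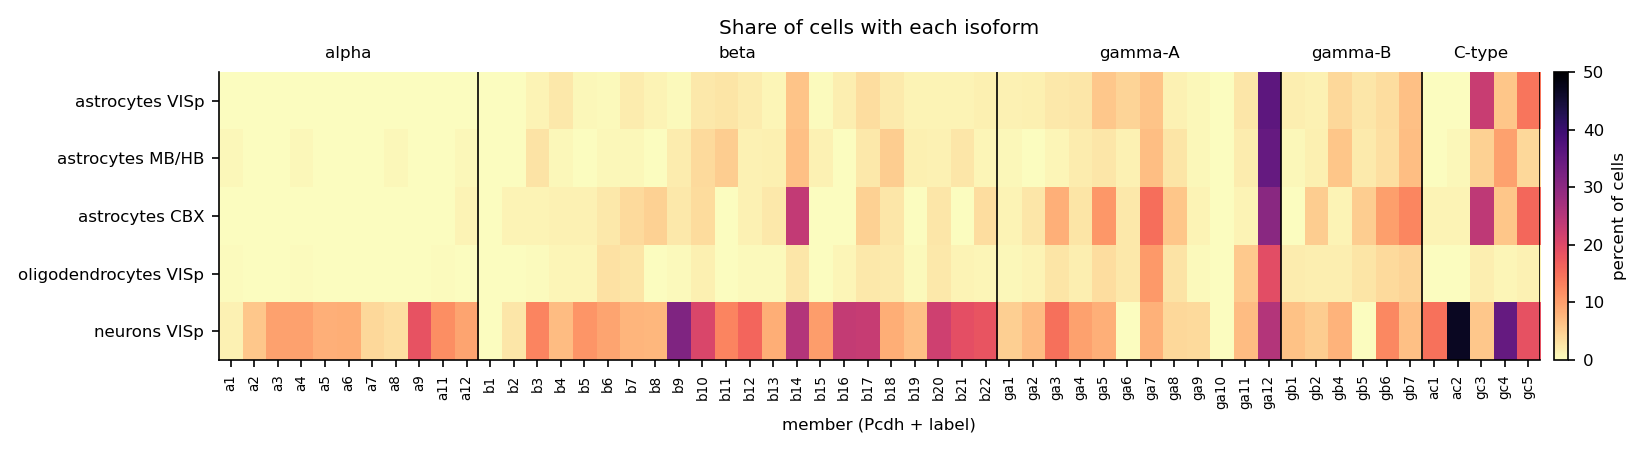
Share of cells with each of the 56 isoforms (columns, by family) in the 5 groups (rows), as the mean over mice, in percent, at 200000 reads. Pcdhga12, Pcdhgc3 and Pcdhgc5 lead in VISp astrocytes, Pcdhb14 rises to 23.6% in CBX astrocytes, and neurons show alpha and beta isoforms and 46.7% of cells with Pcdhac2.

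The C-type isoforms, which cap the alpha and gamma arrays, differed in which classes carried them. Pcdhac2 stood at 12.1, 25.2 and 18.5 CPM in the 3 neuron mice, on 38.5%, 57.1% and 44.4% of their cells. Pcdhac1 stood at 8.12, 5.37 and 6.15 CPM in the same mice. Before thinning, both had a read in 0 of 739 VISp astrocytes, which allows a share of up to 0.406%, and in 0 of 930 oligodendrocytes, which allows up to 0.323% (counting error only). Among astrocytes outside VISp, Pcdhac2 was found in 1 MB/HB cell, with 75 reads before thinning, and in 1 CBX cell with 21, and Pcdhac1 in 1 CBX cell with 56.

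In astrocytes of VISp and CBX, Pcdhgc3 and Pcdhgc5 were the most widely detected C-type isoforms, and in those of MB/HB Pcdhgc4 was. Pcdhgc3 was detected on 22.8% ± 11.5 of VISp astrocytes, at 12.7 ± 6.59 CPM (SD, n = 19), and Pcdhgc5 on 14.3% ± 8.7, at 13.5 ± 8.22 CPM (SD, n = 19). Neurons carried Pcdhgc5 in 18.6% ± 13.2 of cells, at 5.35 CPM, and Pcdhgc3 in 5.74% (SD, n = 3). CBX astrocytes averaged 24.02% for Pcdhgc3, 15.9% for Pcdhgc5 and 5.97% for Pcdhgc4 over 2 mice. MB/HB astrocytes had Pcdhgc4 in 9.90% ± 4.84 of cells, Pcdhgc3 in 4.70% ± 5.60 and Pcdhgc5 in 4.06% ± 1.51 (SD, n = 4), so the means ± SD overlapped. In oligodendrocytes Pcdhgc3 was on 1.72% ± 1.54 of cells and Pcdhgc5 on 1.34% ± 1.81 (SD, n = 22). Pcdhgc4, which is known to be needed for neuron survival, was on 34.8% ± 9.9 of neurons, at 12.2, 10.8 and 11 CPM in the 3 mice, on 5.98% ± 5.68 of VISp astrocytes (SD, n = 19) and on 0.962% ± 1.36 of oligodendrocytes (SD, n = 22).

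**Figure D4:**
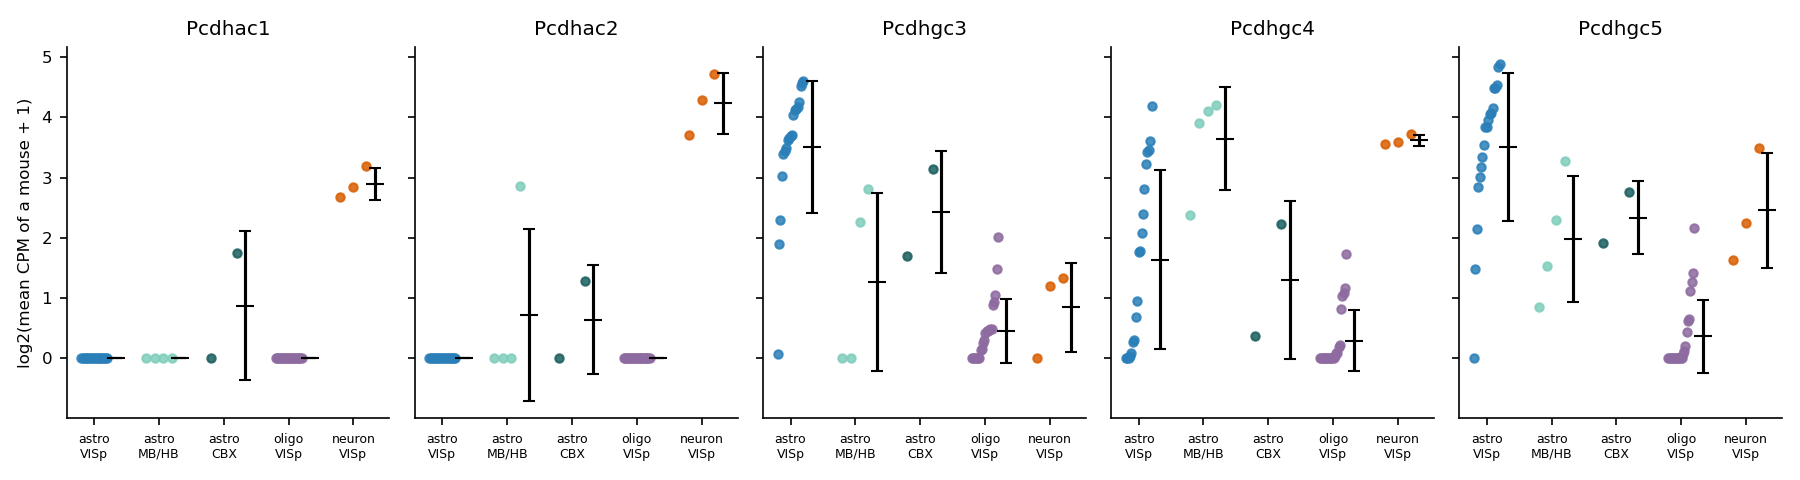
Level of the 5 C-type isoforms in each mouse, as log2(mean CPM + 1), in the 5 groups; points are mice and bars the mean ± SD over mice. Pcdhac1 and Pcdhac2 lie at 0 in every VISp astrocyte and oligodendrocyte mouse, and Pcdhgc3 and Pcdhgc5 lie higher in most VISp astrocyte mice than in oligodendrocyte mice.

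The classes were compared in VISp with limma on log2(mean CPM + 1) per mouse, with Benjamini-Hochberg adjustment over the 3722 panel genes with at least 1 CPM in at least 2 mice. Of the 56 members 52 passed that filter, and Pcdha1, Pcdha8, Pcdhb1 and Pcdhga10 did not. Of the 52, 9 passed only through the neuron mice: Pcdhac1, Pcdhac2 and 7 alpha isoforms (Pcdha2, Pcdha3, Pcdha4, Pcdha5, Pcdha6, Pcdha7 and Pcdha9). That filter fixed their direction in the neuron comparisons, so their values are a description with no test, and the comparisons are read on the other 43 members beside the 3610 genes that passed without the neuron mice, a split made after the values were seen. Log2 differences below are on this scale, which understates changes of low genes. The 3 class comparisons share their samples pairwise and are given side by side. In each, fewer cells with an isoform and less RNA per cell cannot be told apart at the level of a mouse mean.

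Between oligodendrocytes and astrocytes, 16 members passed the test, 13 lower and 3 higher in oligodendrocytes, where 58.7% of all genes tested were called (22.3% higher, 36.4% lower). All 16 were among the 43 members that passed without the neuron mice, of which they are 37.2%, against 60.4% of all genes that passed in the same way (23% higher, 37.5% lower). The median difference was -0.23 over those members and -0.22 over those genes. The largest differences were in Pcdhgc5 (-3.14, SE 0.30, adjusted p = 4.3e-13), Pcdhgc3 (-3.06, SE 0.27, adjusted p = 3.44e-14) and Pcdhga12 (-2.03, SE 0.28, adjusted p = 1.28e-08). Pcdhb11 (-1.50), Pcdhb14 (-1.43), Pcdhgb4 (-1.40), Pcdhgc4 (-1.34), Pcdhb12 (-1.15), Pcdhb8 (-1.07) and Pcdhgb7 (-0.88) were also lower in oligodendrocytes. Pcdhb6 was higher in oligodendrocytes (1.47, SE 0.39, adjusted p = 0.00101), with a median of 3.38 CPM over 22 mice against 0 over 19 astrocyte mice. Pcdhb20 (1.17) and, named after its value was seen, Pcdhga11 (0.82) were higher as well. On cells of AB plates alone the Pcdhb14 call was lost (adjusted p = 0.194), and by share of cells those of Pcdhb20 (0.292), Pcdhb8 (0.255) and Pcdhgb7 (0.0695). For each of the 16 members called, the ranges of the 2 classes overlapped between mice. The share of all genes with such an overlap was not counted.

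Neurons differed from VISp astrocytes in 23 members, 20 higher and 3 lower, where 48.1% of all genes were called, 28.9% higher and 19.2% lower. The 23 include the 9 members whose direction the filter fixed. Of the other 43, 11 were higher and 3 lower, which is 32.6% called, against 46.9% of the genes that passed in the same way (27.1% higher, 19.8% lower). The median difference was 0.26 over those members and 0.10 over those genes. By family, the 11 higher members were 8 of 21 beta, 2 of 2 alpha (Pcdha11 and Pcdha12), 1 of 3 C-type (Pcdhgc4), 0 of 11 gamma-A and 0 of 6 gamma-B. Pcdhb9 had the largest log2 difference of the 43 (5.04, SE 0.55, adjusted p = 5.1e-11), and every neuron mouse lay above every astrocyte mouse. Pcdhac2, Pcdhac1, Pcdha4, Pcdha9 and Pcdha2, with the neuron levels given above, were listed at 0 in all 19 astrocyte mice, so no fold is given. For members at 0 in nearly all glial mice, the spread in the fit comes mainly from mice at 0, and p-values are then smaller than the spread between neuron mice alone would give. Pcdhb21 (2.49), Pcdhb5 (2.23), Pcdhb20 (2.05), Pcdhgc4 (1.98, adjusted p = 0.00763) and Pcdhb6 (1.98) were also higher in neurons. Pcdhb20 lost its call without the eHGT_374m mouse (adjusted p = 0.195) or the MBP_promoter mouse of lower isoform number (0.140), and Pcdhb6 without the eHGT_374m mouse (0.127) or the other MBP_promoter mouse (0.229).

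The 3 members lower in neurons than in astrocytes were Pcdhgc3 (-2.67, SE 0.53, adjusted p = 3.77e-05), Pcdhga6 (adjusted p = 0.0382) and Pcdhgb7 (-1.40, adjusted p = 0.0486), the last pair named after their values were seen. Pcdhgc3 stood at 1.52, 1.30 and 0 CPM in the neuron mice against a median of 12 CPM over VISp astrocyte mice. Pcdhga6 was listed at 0 in all 3 neuron mice, and its median over astrocyte mice was 3.50 CPM. The Pcdhgc5 difference, -1.06 (SE 0.59), missed the threshold (adjusted p = 0.143). Without the eHGT_374m mouse 15 members were called (14 higher, 1 lower), and without the MBP_promoter mouse of higher isoform number also 15 (14 higher, 1 lower). These counts are over all members tested. They were not split by the filter and can hold members whose direction it fixed.

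Against oligodendrocytes, neurons were higher in 24 members and lower in none, where 46.9% of all genes were called, 33.2% higher and 13.7% lower. Again 9 of the 24 are members whose direction the filter fixed. Of the other 43, 15 were higher, or 34.9%, against 45.7% of the genes that passed in the same way (31.6% higher, 14.1% lower). The median difference was 0.88 over those members and 0.30 over those genes. The 15 were 11 of 21 beta, 2 of 2 alpha, 2 of 3 C-type, 0 of 11 gamma-A and 0 of 6 gamma-B members. Pcdhb9 (5.35, SE 0.54, adjusted p = 6.62e-12), Pcdhgc4 (3.33, SE 0.63, adjusted p = 1.38e-05), Pcdhb12 (3.01), Pcdhb21 (2.50), Pcdhb16 (2.29), Pcdhb11 (2.22), Pcdhb10 (2.14) and Pcdhgc5 (2.09, adjusted p = 0.00264) were among the largest differences. Pcdhac2, Pcdhac1, Pcdha2 and Pcdha9 were listed at 0 in all 22 oligodendrocyte mice. Pcdhgc3 did not pass the test (0.39, SE 0.53, adjusted p = 0.611). Without the MBP_promoter mouse of higher isoform number 14 members were called, and the Pcdhgc5 call was lost (adjusted p = 0.0696). The 14 were not split by the filter either and can hold members whose direction it fixed. Pcdhb16 lost its call without the eHGT_374m mouse (adjusted p = 0.0809), and Pcdhb10 without any 1 of the 3 (adjusted p from 0.0740 to 0.137).

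**Figure D5:**
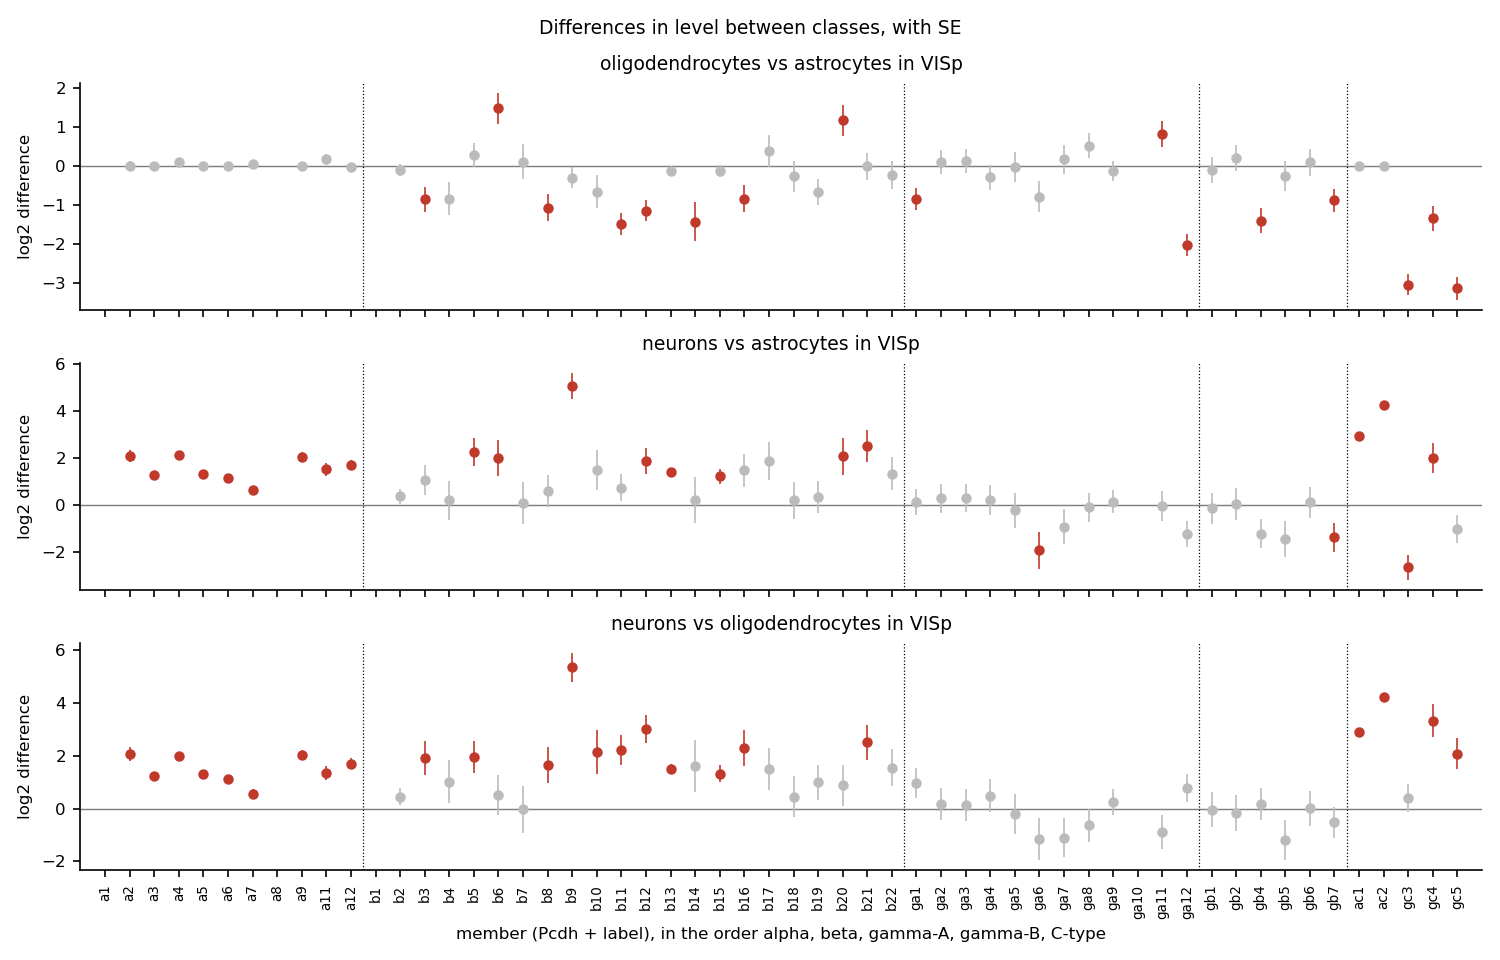
Log2 difference in level (first class minus second, limma) with its SE for the 52 members tested, in 3 class comparisons in VISp; red points have an adjusted p under 0.05. Members listed at 0 in 1 of the classes are drawn too, as are the 9 that passed the filter only through the neuron mice, whose direction in the neuron comparisons the filter fixed. Alpha members and Pcdhb9, Pcdhac1 and Pcdhac2 lie above 0 in both neuron comparisons, and Pcdhgc3 and Pcdhgc5 lie lowest in oligodendrocytes against astrocytes.

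Across tissues, astrocyte levels differed in 1 member. The fit tested 3610 panel genes, and 43 of the 56 members passed the filter, among them only 1 alpha isoform. Pcdhgc3 was lower in MB/HB than in VISp astrocytes (-2.24, SE 0.65, adjusted p = 0.0185), the only member called, where 12.9% of all genes were called (6.51% higher, 6.37% lower). The median difference was -0.15 over the 43 members tested and -0.05 over all genes. It stood at 3.81 and 0 CPM in the eHGT_381h mice and 0 and 6.00 CPM in the MGT_E160m mice, against 0.0496 to 23.4 CPM over VISp mice, so the groups overlapped. The call was lost without the eHGT_381h mouse at 0 (adjusted p = 0.125) or the MGT_E160m mouse at 0 (adjusted p = 0.101). Pcdhgc4 was at 16.2 and 4.20 CPM in the eHGT_381h mice and 17.4 and 14 CPM in the MGT_E160m mice, against a VISp median of 2.40, a difference of 2.01 (SE 0.75) that missed the threshold (adjusted p = 0.0773). Pcdhgc5 differed by -1.52 (SE 0.66, adjusted p = 0.141) and passed only without cells that carried markers of another class (-2.69, adjusted p = 0.00441). Pcdhac2 did not pass (adjusted p = 0.153), and Pcdhac1 was not tested in this fit.

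Between CBX and VISp astrocytes limma called 0 of the 43 members, where 12.5% of all genes were called (6.23% higher, 6.29% lower). An unadjusted p under 0.05 was found for 2 members (Pcdhb2 and Pcdhb20, named after their values were seen), 4.65% against 22.8% of all genes. Between CBX and MB/HB limma also called 0 of the 43, where 10.6% of all genes were called (4.71% higher, 5.9% lower). There 5 members had an unadjusted p under 0.05, 11.6% against 22.1% of all genes. The median difference over the members tested was 0.00330 against VISp and 0.0743 against MB/HB, and over all genes -0.0273 and 0.0304. In CBX against VISp, Pcdhac2 (0.64, SE 0.43), Pcdhgc3 (-1.09, SE 0.88), Pcdhgc4 (-0.34, SE 1.02) and Pcdhgc5 (-1.17, SE 0.89) had adjusted p-values from 0.428 to 0.906. In CBX against MB/HB, Pcdhgc4 differed by -2.35 (SE 1.18, adjusted p = 0.244), Pcdhgc3 by 1.16 (SE 1.03), Pcdhgc5 by 0.35 (SE 1.04) and Pcdhac2 by -0.07 (SE 0.50). Without 1 of the CBX mice, 1 member (Pcdhb2) was called in each comparison, a fit in which the 1 CBX mouse left is assumed to vary like the other groups. When the share of cells with the isoform took the place of the level, 5 members were higher in CBX than in VISp, with 25.4% of all genes called. They were Pcdhb14 (17.6 percentage points, adjusted p = 2.66e-05), Pcdhga7 (9.12), Pcdhgb6 (6.71), Pcdhga3 (5.95) and Pcdhb8 (3.68). Against MB/HB 5 members were higher by share of cells, Pcdhb14, Pcdhb8, Pcdhga3, Pcdhga5 and Pcdhgb6, where 27.7% of all genes were called. These names were chosen after the values were seen, and CBX had only 2 mice of 1 vector. Set against the 43 members tested by level, 5 are 11.6%, below the share of all genes called in both comparisons. The number of members tested by share of cells is not given here, and those shares of all genes were not split by direction. CBX astrocytes also had more panel genes detected per cell, 1140 against 891 in VISp and 804 in MB/HB. The part of panel gene number in the higher shares of cells was not tested.

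Neurons each had a set of isoforms of their own. Of the VISp astrocytes and oligodendrocytes with an isoform other than Pcdhga12, most had a set that another cell of the group had too. Leaving out Pcdhga12, all 84 neurons had sets that no other neuron had. Among cells with at least 1 such isoform, a set that no other cell of the group had was found in 34.9% of VISp astrocytes, 62.2% of MB/HB astrocytes, 77.3% of CBX astrocytes and 26.9% of oligodendrocytes. The commonest sets in VISp astrocytes were Pcdhgc3 alone (53 cells) and Pcdhgc5 alone (27 cells), and in oligodendrocytes Pcdhga7 alone (54 cells) and Pcdhga11 alone (24 cells). In MB/HB astrocytes Pcdhb14 alone and Pcdhb18 alone led with 4 cells each, and in CBX astrocytes Pcdhb14 alone with 5. Larger sets have more ways to differ and larger groups more chances to repeat a set, so these shares follow isoform number and group size as well as identity.

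Sets that were not identical still had members in common. Pairs of neurons shared at least 1 isoform other than Pcdhga12 in 67% of pairs within a mouse and 63.3% between mice. For VISp astrocytes the shares were 23.2% and 20.6%, for MB/HB 12.5% and 12.9%, for CBX 30.7% and 26.2%, and for oligodendrocytes 10.7% and 10.3%. In no group did cells of 1 mouse share isoforms more often than cells of different mice by more than 5 percentage points. These shares rest on pairs that reuse the same cells, so they carry no test. Among VISp astrocytes, 40 cells carried both Pcdhgc3 and Pcdhgc5, 37% of the cells with Pcdhgc5 and 24% of those with Pcdhgc3, and in neurons 11 cells carried both Pcdhac2 and Pcdhgc4, 40.7% of those with Pcdhgc4 and 31.4% of those with Pcdhac2.

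Of the 84 neurons, 61 had Gad1 and Gad2, the enzymes of GABA synthesis, at a sum of 100 CPM or more. The other 23 had Slc17a7, the vesicular glutamate transporter of cortical excitatory neurons, at 100 CPM or more. A cell that met both rules was placed with the Gad1 or Gad2 neurons. Isoforms per cell were 6.43 in the neurons with Gad1 or Gad2 and 5.96 in those with Slc17a7. Pcdhgc4 was in 39.3% of the former, which came from 11 mice, and in 13% of the latter, which came from 14. Pcdhgc5 was in 14.8% and 39.1%, Pcdhac2 in 42.6% and 39.1%, and Pcdhac1 in 14.8% and 0 of 23, which allows up to 13%. These shares pool cells over mice and are descriptions with no test.

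The other protocadherins lie outside the clusters and include adhesion genes with single promoters. Of 12 listed, 11 were tested in each fit. Between neurons and astrocytes 6 were higher and 4 lower, 90.9% of the 11 against 48.1% of all genes (median difference 1.19 against 0.15), with Pcdh8 (4.13), Pcdh15 (3.73), Pcdh19 (2.69) and Pcdh18 (1.79) higher and Pcdh1 (-2.52) lower. The Pcdh18 call was lost without either MBP_promoter mouse (adjusted p = 0.328 and 0.305). Between oligodendrocytes and astrocytes 2 were higher and 7 lower, 81.8% against 58.7% of all genes (median -1.15 against -0.19), with Pcdh7 (-4.87), Pcdh1 (-4.06), Pcdh20 (-3.78) and Pcdh10 (-3.03) lower and Pcdh15 higher (2.35). Against oligodendrocytes, neurons were higher in 8 and lower in 1, 81.8% against 46.9% of all genes (median 1.97 against 0.34), led by Pcdh20 (5.03), Pcdh8 (4.59), Pcdh19 (3.92) and Pcdh7 (3.61), and Pcdh18 was listed at 0 in all oligodendrocyte mice (adjusted p = 0.000276).

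Among astrocytes the same 11 genes gave 3 lower and 0 higher in CBX against VISp, 27.3% against 12.5% of all genes (median -0.77 against -0.03), namely Pcdh1 (-2.63), Pcdh11x (-2.24) and Pcdh7 (-2.16). In MB/HB against VISp, Pcdh19 (2.71) and Pcdh11x (1.23) were higher and Pcdh20 (-2.95) and Pcdh1 (-2.79) lower, 36.4% of the 11 against 12.9% of all genes (median 0.41 against -0.05). In CBX against MB/HB, Pcdh20 was higher (4.76) and Pcdh19 (-4.34), Pcdh11x (-3.47) and Pcdh7 (-2.69) lower, 36.4% of the 11 against 10.6% of all genes (median -0.71 against 0.03). Leaving out 1 CBX mouse, which leaves that group with 1 mouse, ended the calls of Pcdh1 (adjusted p = 0.0720) and Pcdh11x (0.176) against VISp and of Pcdh19 against MB/HB (0.0806 and 0.105). Leaving out 1 MB/HB mouse ended that of Pcdh11x against VISp for 3 of the 4 mice (0.0794 to 0.124). By share of cells the calls against VISp of Pcdh1 (adjusted p = 0.135) and Pcdh11x (0.150) in CBX were lost. So were those of Pcdh20 (0.0973) and Pcdh11x (0.311) in MB/HB. The MB/HB call of Pcdh11x was also lost without cells carrying markers of another class (0.279) and on AB plates alone (0.0617).

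Promoter choice in the clusters is known to use CTCF, cohesin and DNA methylation, and all 17 listed genes of these kinds were tested. Oligodendrocytes were higher than astrocytes in 7 and lower in 5, 70.6% of the 17 against 58.7% of all genes (median 0.21 against -0.19), with the maintenance methyltransferase Dnmt1 (1.77) and the cohesin subunits Rad21 (1.24) and Smc1a (1.09) higher, and Smchd1 (-1.07), known to repress clustered protocadherin promoters, and the cohesin subunit Stag1 (-0.94) lower. Neurons were higher than astrocytes in 3, Dnmt1 (2.63), Pds5b (1.33) and Smc1a (1.30), and lower in 5, 47.1% against 48.1% of all genes (median -0.55 against 0.15), among them the cohesin loader Nipbl (-1.73) and the methyltransferase Dnmt3a (-1.41). The Pds5b call was lost without any 1 of the 3 neuron mice (adjusted p from 0.0530 to 0.134). Against oligodendrocytes neurons were lower in 4, Stag2 (-1.59), Dnmt3a (-1.44), Tet3 (-1.31) and Nipbl (-0.89), and higher in none, 23.5% against 46.9% of all genes (median -0.33 against 0.34). The Nipbl call was lost without the MBP_promoter mouse of higher isoform number (adjusted p = 0.0607). By share of cells at equal reads Dnmt3a in both neuron comparisons, and Stag2, Tet3 and Nipbl against oligodendrocytes, turned and were higher in neurons, and the Nipbl call against astrocytes was lost (adjusted p = 0.225).

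In astrocytes Dnmt3a was lower in CBX than in VISp (-1.67, adjusted p = 0.0125) and than in MB/HB (-2.44, adjusted p = 0.00204), the only gene of the 17 called in either, 5.88% against 12.5% and 10.6% of all genes. Both calls were lost without 1 of the CBX mice (differences of -1.04 and -1.81, adjusted p = 0.512 and 0.142), which left that group with 1 mouse, and by share of cells (0.390 and 0.381). In MB/HB against VISp limma called 0 of the 17, where 12.9% of all genes were called. Of the 17, 2 had an unadjusted p under 0.05, 11.8% against 24.6% of all genes. The medians over the 17 were -0.42 in CBX against VISp, -0.48 in CBX against MB/HB and 0.05 in MB/HB against VISp.

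Clustered protocadherins are known to act through the WAVE actin regulators and the kinases Ptk2 and Ptk2b and to bind neuroligins, and 16 listed partners of these kinds were tested. Oligodendrocytes were higher than astrocytes in 8 and lower in 5, 81.3% of the 16 against 58.7% of all genes (median 0.17 against -0.19), with the small GTPase Rac1 higher (1.22) and Nlgn1 (-3.33), Ptk2b (-2.07), Abi1 (-1.87) and Cyfip1 (-1.33) lower. Neurons were higher than astrocytes in 6 and lower in 5, 68.8% against 48.1% of all genes (median 0.15 over both), with the WAVE subunits Cyfip2 (4.30) and Wasf1 (2.88), Ptk2b (2.87) and Nlgn2 (2.19) higher and Cyfip1 (-2.19) lower. By share of cells Ptk2b turned and was lower in neurons than in astrocytes, and the Cyfip1 call was lost (adjusted p = 0.514). Neurons were higher than oligodendrocytes in 8 and lower in 5, 81.3% against 46.9% of all genes (median 0.63 against 0.34), with Ptk2b (4.94), Cyfip2 (3.17), Nlgn2 (2.19) and Wasf1 (1.95) higher and Ptk2 (-1.92) lower, a call that was lost by share of cells (adjusted p = 0.716). In CBX, Cyfip1 (1.15) and Brk1 (0.61) were higher than in VISp (median 0.33) and Abi2 (1.79) and Brk1 (0.83) higher than in MB/HB (median 0.60), which is 12.5% of the 16 in each, against 12.5% and 10.6% of all genes. All 4 calls were lost without either CBX mouse (adjusted p from 0.0591 to 0.378), in fits that leave 1 CBX mouse, where the differences were 0.997 and 1.31 for Cyfip1, 0.71 and 0.51 for Brk1 against VISp, 1.70 and 1.87 for Abi2, and 0.92 and 0.73 for Brk1 against MB/HB. The Abi2 call was also lost without any of 3 of the 4 MB/HB mice (adjusted p from 0.0525 to 0.0628). In MB/HB against VISp limma called 0 of the 16, where 12.9% of all genes were called (median -0.22 over the 16). Of the 16, 3 had an unadjusted p under 0.05, 18.75% against 24.6% of all genes.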

How the data were processed

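Single SYFP2+ cells were profiled with SMARTerv4 and, per the submitters' processing notes, STAR and mm10 were used; the counter, its annotation and its handling of reads in exons that members share are not given in the sources used here. A median of 46.5% of the exon bases of an alpha gene and 55.2% of a gamma-A gene belong to that member alone. The authors deposited CPM, that is, reads scaled so that each cell sums to 1000000. All 9484843 values above 0 were whole multiples of 1 read (within 0.001 reads), from which reads per cell were taken. Named were 5150 of the columns (56 members, 141 genes of the lists and markers, 4953 drawn at random) and 27095 columns were not used beyond sums and depth. Cells were clustered with 2000 variable genes, 30 principal components and Leiden (leidenalg 0.10.2, resolution 1). CPM was averaged per mouse and class and tested with limma 3.58.1 in R 4.3.3 on log2(mean CPM + 1), two-sided, adjusted p under 0.05; the pipeline was tested on simulated data. Named genes are the members past the threshold (up to 12 per comparison), the C-type members, the 5 leading isoforms per class and up to 5 called genes per list. Members and lists were chosen with earlier results of these data known. Doublets were not called: each cell was sorted alone, and cells with markers of another class were left out in an alternative. Other alternatives changed pseudocount, filter, class calls, plates and mice. Mice are labelled as separate animals, and 3 mice gave enough cells of 2 classes and so pair those classes by animal, which was tried as a block. The planned count model was not run on a table deposited as CPM. Intervals cover counting error only, because the protocol marks no molecules.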

Additional observations from a re-analysis of the deposited data

Results flagged for a closer look

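The 4 MB/HB mice were checked on 17 measures, of the members and of panel gene number, for a value far from the rest of the group. Such a value was found in 1 measure. Pcdhac2 was detected in 2.78% of the astrocytes of 1 MGT_E160m mouse and in no astrocyte of the other 3 mice. That share is 1 cell of 36. For normally distributed values chance gives such a gap in about 1 measure in 20, so 1 among the 17 searched is no more than chance can give. The measures share members and cells, so that rate is only a rough guide. With the other 3 mice at 0, any share above 0 would have met the criterion.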

How the results depend on the processing

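Of the values for single genes under alternatives, 1083 kept their side of the threshold, 56 lost their call, 1 gained one and 6 reversed. A reversal was counted only for a gene called in the main fit or in the alternative. A change of direction in a gene called in neither stays among the 1083. All 6 reversals arose when the percent of cells with a read replaced the level. Dnmt3a was then higher in neurons than in astrocytes by 14.8 percentage points and than in oligodendrocytes by 17.6, Stag2, Tet3 and Nipbl were higher in neurons than in oligodendrocytes by 17.2, 16 and 24, and the Ptk2b difference between neurons and astrocytes was -14. The cause was not tested. By percent of cells, 44 members were called between neurons and astrocytes (23 by level), 44 between neurons and oligodendrocytes (24), 5 in CBX against VISp (0) and 5 in CBX against MB/HB (0), and a larger share of all genes was called too, 70.7%, 67.7%, 25.4% and 27.7%. Without a filter on low values, 1 member was called in CBX against VISp and 1 against MB/HB. Without cells carrying markers of another class, 2 were called in MB/HB against VISp (Pcdhgc3 and Pcdhgc5). Leaving out 1 mouse gave 0 to 1 calls in CBX against VISp, 0 to 2 in MB/HB against VISp, 0 to 1 in CBX against MB/HB, 15 to 19 in neurons against astrocytes and 14 to 22 in neurons against oligodendrocytes. With the mouse as a replicate block, since mice that gave several classes pair them, the class comparisons called 16, 23 (21 higher, 2 lower) and 24 members. In the neuron comparisons, all these counts under alternatives are over all members tested. They were not split by the filter and can hold members whose direction it fixed. Counting an isoform only from 5 reads gave 1.06 isoforms per VISp astrocyte, 1.39 per CBX astrocyte, 0.598 per oligodendrocyte and 3.42 per neuron. Neurons had 5.77 isoforms at 100000 reads and 7.12 without thinning. Leaving out 1 mouse gave 1.16 to 1.58 isoforms in MB/HB, 1.92 to 2.63 in CBX and 6.27 to 6.66 in neurons. A planned edgeR fit was not run, because the table was deposited as CPM. Read depth limits isoform numbers, as the values at 100000 reads and without thinning show. Leaving out a CBX mouse leaves 1 in that group, which is then assumed to vary like the others.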

Other observations

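Cells outside the comparisons were few. In MB/HB, 15 neuron-like cells of 4 mice had 2.47 isoforms per cell (0 to 7) at a median of 321920 reads before thinning, with 1.07 beta, 0.40 alpha and 0.33 C-type isoforms per cell. In the same tissue, 8 oligodendrocyte-like cells of 1 mouse had 0.75 isoforms per cell and no alpha or C-type isoform. The unnamed cluster held 32 VISp cells of 19 mice with 2.81 isoforms per cell (0 to 7), of which 0.97 were beta and 0.0625 alpha. Another 3 unnamed cells of MB/HB had 3.33 isoforms per cell.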
